A study of Thermothelomyces thermophilus with 14 samples.

Results

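MYCTH_89603 and MYCTH_49824 are genes for xylanases, enzymes that cut the backbone of xylan, in the thermophilic filamentous fungus Myceliophthora thermophila. They are 2 of the 9110 genes in the count table. They were chosen by identifier because, in these same libraries, both stood high with xylobiose and lower when cellobiose was present as well. The levels that chose them are therefore given as a description, with no test.

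All 14 libraries, 2 in each of 7 groups, came from wild-type mycelium of strain ATCC 42464. Mycelium grown beforehand was moved to Vogel's salts with the carbon source and taken after 4 h. In 100 mL flask cultures the carbon source was 1% Avicel, a microcrystalline cellulose, with 1% xylan (group XA), or 2% xylan (group Xylan). In 5 mL cultures in 24-well plates it was 2% cellobiose with 2% xylobiose (G2X2), 2% xylobiose (X2), 2% cellobiose (G2), 1% glucose with 1% xylose (GX), or no carbon source (NoCarbon2). The G2X2 medium thus held more sugar in all than the X2 medium. Flask and plate cultures differed in vessel as well as in carbon source, and these cannot be told apart. Whether the replicates of a group were separate cultures is not stated, and p-values then reflect no more than the spread between the libraries, which may be technical.

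Xylan, the main hemicellulose of many plant cell walls, is a chain of xylose units. Secreted endo-xylanases cut it within the chain into short xylodextrins, of which xylobiose is the shortest, and beta-xylosidases and sugar transporters take these further. In filamentous fungi such as Aspergillus, Trichoderma and Neurospora, xylanase genes are switched on by breakdown products of xylan through a zinc cluster transcription factor called XlnR, XYR1 or XLR-1. In the same fungi they are held down by readily used sugars through the repressor CreA, CRE1 or CRE-1. Cellobiose is the disaccharide of glucose released from cellulose.

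Levels are given as CPM, each gene's counts relative to its library's scaled total. Library totals ranged from 17992946 to 25254924 counts assigned to genes, so the lowest raw count of either gene, 92 for MYCTH_49824 in a G2 library, was well above 0. The 10 most abundant genes took 6.18% to 12.4% of a library, with the highest share in X2 replicate 2. In every group the counts of the replicates were further apart than counting error allows (chi-square per gene 21.0 to 227.6). This gives no sign of a repeated library and says nothing of separate cultures.

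With xylobiose alone, MYCTH_89603 was among the most abundant transcripts of the mycelium. The G2X2 libraries held 456 and 637 CPM, the X2 libraries 5725 and 12636 CPM, the G2 libraries 11.3 and 12.8 CPM, the GX libraries 16.6 and 10.6 CPM and the NoCarbon2 libraries 38.4 and 24.3 CPM. Each X2 library thus lay above every other library of the series, and each G2X2 library lay above all G2, GX and NoCarbon2 libraries. In X2 the gene alone made up 0.492% and 0.926% of all counts assigned to genes. Per kilobase of annotated gene span (785 bases) its level was the 5th highest in X2 replicate 1 and the 2nd in X2 replicate 2. By the same measure it ranked 185th in G2X2 replicate 1 and 134th in G2X2 replicate 2. In the flasks the XA libraries held 902 and 729 CPM and the Xylan libraries 815 and 1789 CPM. In order of the group means, X2 was followed by Xylan, XA, G2X2, NoCarbon2, GX and G2. Neighbours in that order overlapped for Xylan with XA and for GX with G2, and lay apart otherwise.

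MYCTH_49824 had the same separation between media that held xylan or xylobiose and those that did not, at a lower level with xylobiose. The G2X2 libraries held 249 and 336 CPM, the X2 libraries 704 and 2172 CPM, the G2 libraries 4.85 and 4.15 CPM, the GX libraries 6.88 and 3.57 CPM and the NoCarbon2 libraries 5.65 and 10.7 CPM. The XA libraries held 1619 and 1361 CPM and the Xylan libraries 486 and 565 CPM. Its order differed from that of MYCTH_89603 at the top: XA came before X2, which was followed by Xylan, G2X2, NoCarbon2, GX and G2. The XA and X2 libraries overlapped, as did NoCarbon2 with GX and GX with G2. Per kilobase of gene span (902 bases) the gene ranked 28th and 34th in the XA libraries, against 175th and 35th in the X2 libraries.

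**Figure D1:**
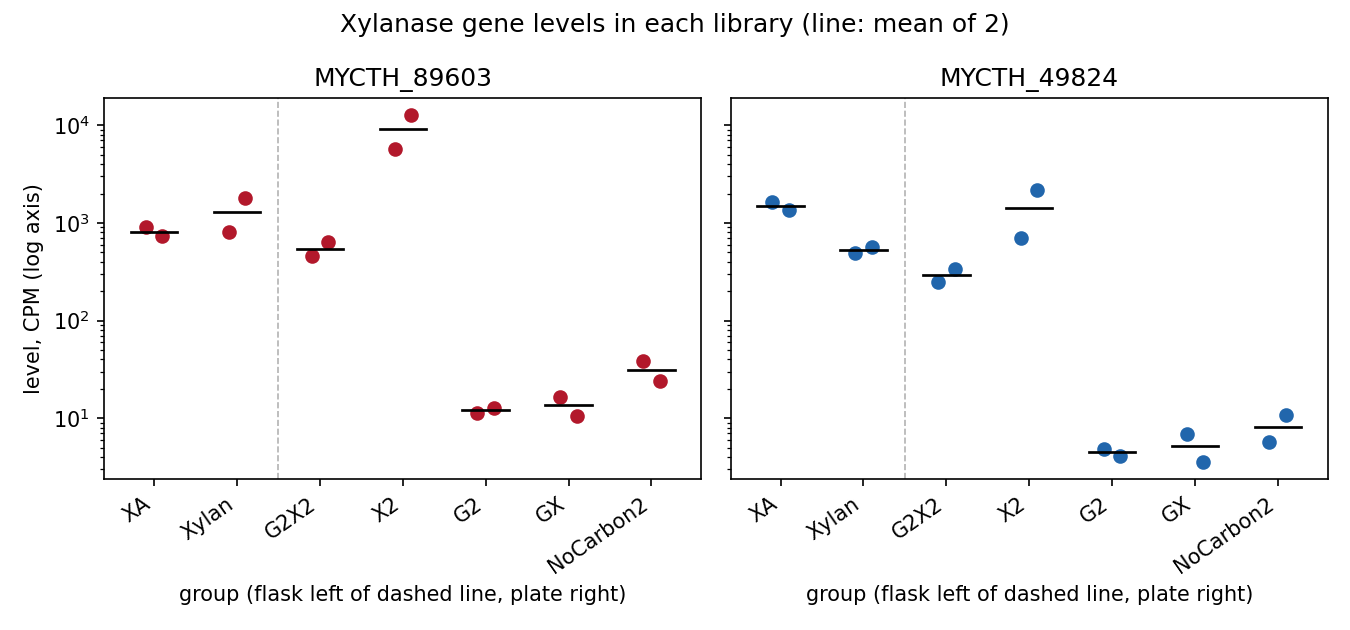
Level of each xylanase gene in CPM on a log axis, by group; points are the 2 libraries of a group, horizontal lines their mean, and the dashed line parts flask from plate cultures. In X2 the libraries of MYCTH_89603 stood at 5725 and 12636 CPM, whereas for MYCTH_49824 the XA libraries, at 1619 and 1361 CPM, lay between the X2 libraries, at 704 and 2172 CPM.

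Adding cellobiose to xylobiose, the comparison that chose the genes, left MYCTH_89603 at 547 ± 128 CPM in G2X2, against 9181 ± 4887 CPM in X2 (SD, n = 2 each). The G2X2 mean was 5.95% of the X2 mean, and the log2 fold change was -4.07 ± 0.47 (SE). MYCTH_49824 averaged 292 ± 61.5 CPM in G2X2 and 1438 ± 1038 CPM in X2 (SD, n = 2 each), so that G2X2 held 20.3% of the X2 mean (log2 fold change -2.30 ± 0.47, SE). The groups of 2 did not overlap for either gene. From the bottom of all genes tested, the log2 fold changes of MYCTH_89603 and MYCTH_49824 ranked 71st and 294th. In this comparison 30.0% of the 8567 genes tested were called at an adjusted p under 0.05, 15.4% of the genes tested as lower in G2X2 and 14.6% as higher. The size of the drop depended on the X2 libraries, which differed 2.21-fold for MYCTH_89603 and 3.09-fold for MYCTH_49824. Without X2 replicate 2 the log2 fold changes were -3.38 and -1.25, and without X2 replicate 1 they were -4.52 and -2.88. X2 replicate 2 also had the smallest scaling factor of the series (0.733), and the part of that in the difference between X2 libraries was not tested.

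With cellobiose present, both genes still stood above the plate media without xylobiose, though below the flask media with xylan. MYCTH_89603 averaged 547 CPM in G2X2, 45.4 times its mean in G2 (12.0 ± 1.10 CPM) and 17.4 times its mean in NoCarbon2 (31.3 ± 9.99 CPM). MYCTH_49824 averaged 292 CPM in G2X2, 65.0 times its mean in G2 (4.50 ± 0.494 CPM) and 35.8 times its mean in NoCarbon2 (8.16 ± 3.55 CPM; SD, n = 2 each). With xylobiose alone the means were 293 times (MYCTH_89603) and 176 times (MYCTH_49824) those in NoCarbon2. By log2 fold change of X2 versus NoCarbon2 these ranked 2nd (8.19) and 5th (7.46) of 8567 genes. Without X2 replicate 2 they were 7.50 and 6.42, and without X2 replicate 1 they were 8.59 and 7.99.

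With part of the xylan replaced by cellulose in the flasks, at an equal total of 2%, 1 of the 2 genes was called. MYCTH_49824 rose: it averaged 1490 ± 182 CPM in XA and 525 ± 55.4 CPM in Xylan (SD, n = 2 each), a log2 fold change of 1.50 ± 0.46 (SE; 95% interval 0.51 to 2.49; edgeR adjusted p = 0.0254). MYCTH_89603 averaged 816 ± 122 CPM in XA and 1302 ± 689 CPM in Xylan, and its difference was not called (log2 fold change -0.67 ± 0.42, 95% interval -1.58 to 0.23, edgeR adjusted p = 0.235). Among all genes tested 31.9% were called in this comparison, 14.8% higher and 17.1% lower, and 1 of the 2 xylanase genes was called. With upper-quartile scaling 1582 genes were higher and 1265 lower, against 1270 and 1461. The rise of MYCTH_49824 was lost on leaving out any 1 of the 4 libraries (edgeR adjusted p 0.0704 to 0.117), although the log2 fold change stayed between 1.37 and 1.63. The difference of MYCTH_89603 turned on Xylan replicate 2, without which it was -0.01.

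The ratio of the genes within a library needs no scaling between libraries, and it varied over the media. Per kilobase of gene span, MYCTH_89603 had 0.641 and 0.616 times the counts of MYCTH_49824 in the XA libraries, against 1.92 and 3.64 times in the Xylan libraries. It had 2.10 and 2.18 times the counts in the G2X2 libraries, 9.35 and 6.69 times in the X2 libraries, 2.67 and 3.55 times in the G2 libraries, 2.77 and 3.40 times in the GX libraries and 7.80 and 2.61 times in the NoCarbon2 libraries. MYCTH_49824 was the more abundant of the pair only in the XA libraries among the 14. On the log2 scale the ratio was lower by 2.08 in XA than in Xylan (-0.67 ± 0.04 in XA and 1.40 ± 0.65 in Xylan, SD, n = 2 each). The libraries did not overlap. An exact two-sided permutation test gave p = 0.333, the smallest that 2 against 2 libraries allow, so it could not decide. The same limit held for all 4 such ratio comparisons. In the mixture the ratio was lower than with xylobiose alone (1.10 ± 0.04 in G2X2 and 2.98 ± 0.34 in X2, log2), which restates that the drop was steeper for MYCTH_89603.

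**Figure D2:**
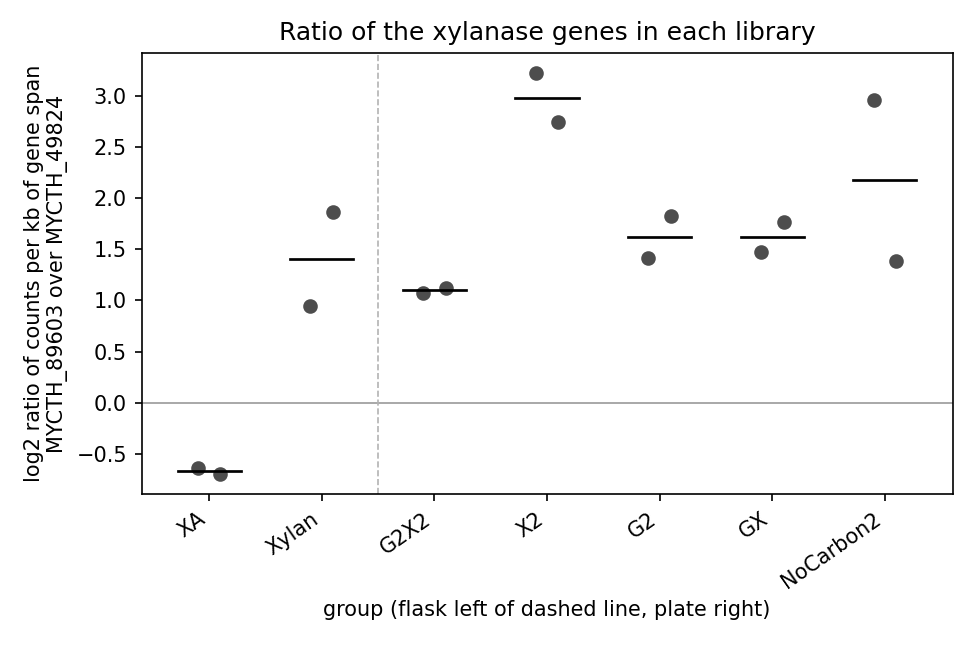
Log2 ratio of MYCTH_89603 to MYCTH_49824 counts per kilobase of gene span, by group; points are libraries, horizontal lines group means, and the dashed line parts flask from plate cultures. The XA libraries lie below 0, with a mean of -0.67, and the X2 mean of 2.98 is the highest of the 7 group means.

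Cellobiose without xylobiose also gave a lower level of MYCTH_89603 than no carbon source. The gene fell to 12.0 ± 1.10 CPM in G2, against 31.3 ± 9.99 CPM in NoCarbon2 (SD, n = 2 each; log2 fold change -1.38 ± 0.44, SE; 95% interval -2.32 to -0.43; edgeR adjusted p = 0.0343). MYCTH_49824 averaged 4.50 ± 0.494 CPM in G2 and 8.16 ± 3.55 CPM in NoCarbon2, and its difference was not called (-0.86 ± 0.49, 95% interval -1.92 to 0.20, edgeR adjusted p = 0.224). The share of all genes called was 26.5%, with 12.3% called higher and 14.2% lower. The fall of MYCTH_89603 was lost without NoCarbon2 replicate 1 (log2 fold change -1.01, edgeR adjusted p = 0.17) and without G2 replicate 1 or G2 replicate 2 (edgeR adjusted p = 0.166 and 0.124).

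Glucose with xylose, the monosaccharides of both polymers, gave no called rise of either gene over no carbon. MYCTH_89603 averaged 13.6 ± 4.27 CPM in GX and 31.3 ± 9.99 CPM in NoCarbon2 (SD, n = 2 each), a log2 fold change of -1.21 ± 0.43 (SE; 95% interval -2.15 to -0.27) that edgeR did not call (adjusted p = 0.0607) and the DESeq2 Wald test did (adjusted p = 0.0158). MYCTH_49824 averaged 5.22 ± 2.34 CPM in GX and 8.16 ± 3.55 CPM in NoCarbon2, with a log2 fold change of -0.65 ± 0.48 (95% interval -1.70 to 0.40, edgeR adjusted p = 0.356). Of all genes tested, 24.0% were called, 10.9% higher and 13.1% lower (1035 genes higher and 976 lower with upper-quartile scaling, against 938 and 1122). The G2 and GX comparisons share the NoCarbon2 libraries and are not independent of each other.

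Neither gene was called between cellobiose and glucose with xylose. G2 versus GX gave a log2 fold change of -0.17 ± 0.43 for MYCTH_89603 (95% interval -1.11 to 0.77, edgeR adjusted p = 0.855) and -0.21 ± 0.50 for MYCTH_49824 (95% interval -1.29 to 0.87, edgeR adjusted p = 0.845). Between these media 10.5% of all genes were called. Both signs turned without GX replicate 1 (0.19 and 0.34).

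**Figure D3:**
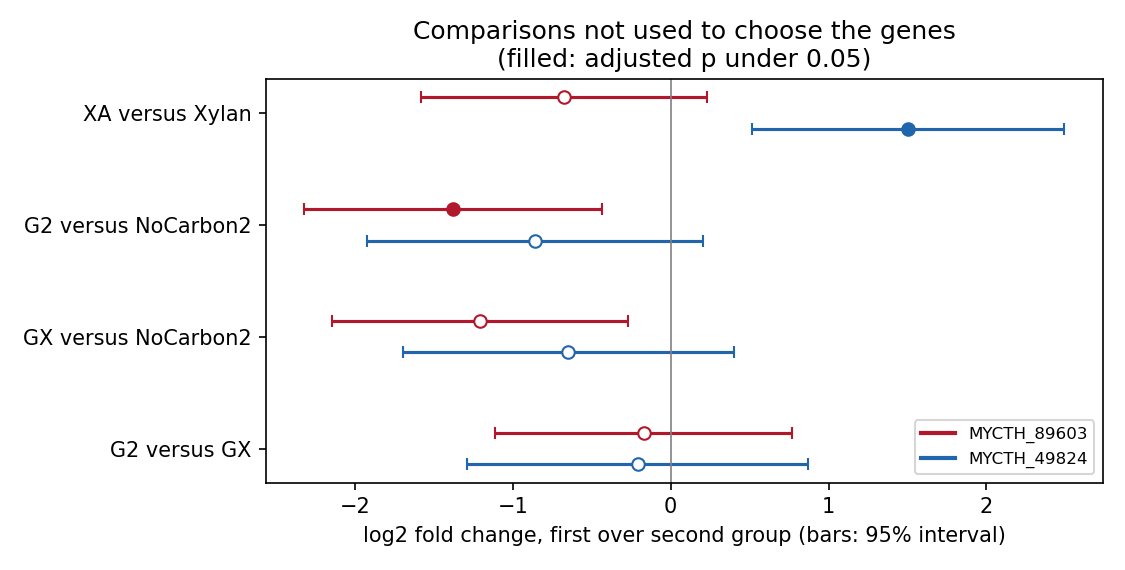
Log2 fold changes with 95% intervals for the 2 xylanase genes in the 4 comparisons that the choice of genes did not use; filled points were called at an edgeR adjusted p under 0.05. The calls were MYCTH_49824 in XA versus Xylan (1.50) and MYCTH_89603 in G2 versus NoCarbon2 (-1.38).

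The replicates of these genes differed by more than the median gene in 13 of 14 cases (2 genes in 7 groups), the exception being MYCTH_49824 in Xylan. In X2 the replicate libraries differed by 1.14 (MYCTH_89603) and 1.63 (MYCTH_49824) on the log2 scale, beside a median absolute difference of 0.38 over all genes tested. In Xylan they differed by 1.13 for MYCTH_89603 and by 0.22 for MYCTH_49824, beside a median of 0.26. In G2 both genes were close to the median of 0.18, at 0.19 and 0.22.

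Other loci of xylan use were set beside the pair. Their names are remembered from published locus assignments: the xylanase loci MYCTH_112050 and MYCTH_56237, the disaccharide transporter cdt-2 (MYCTH_114107) and xyr-1 (MYCTH_2310145), the counterpart of the XYR1 regulator above. The reference gene table lists these loci without product names, so it neither gives nor contradicts the names. The 2 other xylanase loci also had higher means in X2 than in NoCarbon2, 68.0 times for MYCTH_112050 and 9.51 times for MYCTH_56237. In X2 the level of MYCTH_56237 was far below those of the pair. The G2X2 means of these 2 loci were nearer to their X2 means. MYCTH_112050 averaged 733 ± 106 CPM in G2X2 and 801 ± 553 CPM in X2, and MYCTH_56237 65.9 ± 22.0 CPM in G2X2 and 78.0 ± 39.9 CPM in X2 (SD, n = 2 each). That is 91.5% and 84.4% of the X2 mean, beside 5.95% and 20.3% for MYCTH_89603 and MYCTH_49824. For cdt-2 it was 62.5%. In G2X2 versus X2 cdt-2 was not called (edgeR adjusted p = 0.204). The log2 fold changes of these 3 loci there were -0.13, -0.24 and -0.68, and these values turned on the X2 libraries. Without X2 replicate 2 their log2 fold changes were 0.85, 0.42 and 0.01, and without X2 replicate 1 they were -0.69, -0.67 and -1.12. Because the xylanase loci were sorted into those reduced and those kept by this very comparison, the difference between them is a description, with no test.

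In G2X2 versus X2 the regulator gene xyr-1 went the opposite way to the pair. It was called higher in G2X2, at 89.7 ± 0.997 CPM, than in X2, at 33.5 ± 0.705 CPM (SD, n = 2 each; log2 fold change 1.42 ± 0.28, SE; edgeR adjusted p = 0.00355), while both xylanase genes stood lower. Its highest mean was in G2, at 159 ± 21.6 CPM, where both xylanase genes had their lowest means. The lowest mean of xyr-1 was in GX, at 30.0 ± 1.80 CPM, where the libraries of both xylanase genes overlapped those in G2. In the flasks xyr-1 rose in XA over Xylan (1.99 ± 0.29, edgeR adjusted p = 0.000401), as did MYCTH_49824 (above), cdt-2 (2.79 ± 0.41, edgeR adjusted p = 0.00048) and MYCTH_112050 (1.40 ± 0.39, edgeR adjusted p = 0.0166). The call of MYCTH_112050 was lost without Xylan replicate 1, Xylan replicate 2 or XA replicate 1 (edgeR adjusted p = 0.0688, 0.0874 and 0.0935). MYCTH_56237 did not pass the test there (0.04 ± 0.33, edgeR adjusted p = 0.938). In GX versus NoCarbon2 xyr-1 had the sign of both xylanase genes without being called (-0.71 ± 0.28, edgeR adjusted p = 0.0838). Of the 4 loci 3 were thus called higher and 0 lower in XA versus Xylan, where 14.8% of all genes tested were called higher and 17.1% lower. In G2 versus NoCarbon2 2 were called higher and 0 lower (12.3% and 14.2% of all genes). In GX versus NoCarbon2 0 were called higher and 2 lower (10.9% and 13.1%). In G2 versus GX 2 were called higher and 0 lower (4.62% and 5.87%). The calls in G2 versus GX were not recomputed with other settings or with libraries left out. The median log2 fold changes of the 4 loci in these 4 comparisons were 1.70, 0.63, -0.91 and 1.73. The medians over all genes tested were 0.01, 0.01, -0.02 and 0.03. Among these calls, the rise of cdt-2 in G2 was lost without NoCarbon2 replicate 2, G2 replicate 1 or G2 replicate 2 (edgeR adjusted p = 0.174, 0.165 and 0.0532). Its fall in GX (-1.46) was lost without either GX library (0.107 and 0.0991) or NoCarbon2 replicate 1 (0.12), and the fall of MYCTH_56237 in GX (-1.11) without any 1 of the 4 libraries (0.0618 to 0.183). This call of MYCTH_56237 was also lost with upper-quartile scaling (0.0521), with plate libraries only (0.0511) and when groups outside the comparison were left out (0.0568).

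**Figure D4:**
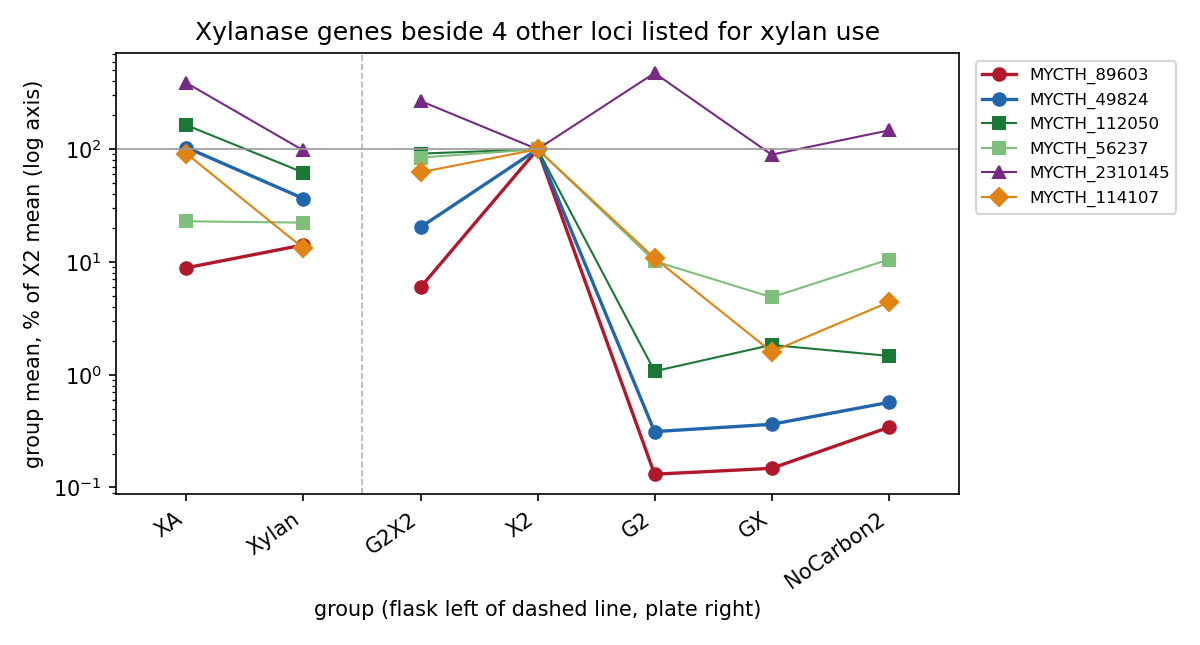
Group mean of each locus as a percentage of its own X2 mean, on a log axis; circles are the pair chosen here, squares the other xylanase loci MYCTH_112050 and MYCTH_56237, triangles xyr-1 (MYCTH_2310145) and diamonds cdt-2 (MYCTH_114107), and lines join groups within flask or plate cultures. In G2X2 the chosen pair lies at 5.95% and 20.3%, and the other xylanase loci at 91.5% and 84.4%.

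Likeness of profile was measured as a description, since the X2 and G2X2 libraries that chose the pair for a shared pattern are part of it. It was taken over the 14 libraries as the root mean square difference of log2 CPM, after each gene's own mean was subtracted. For MYCTH_89603 the most similar of the other 8566 genes was MYCTH_49824 (1.10), followed by MYCTH_116553 (1.37), MYCTH_2308362 (1.42), MYCTH_112050 (1.42) and MYCTH_89872 (1.68). For MYCTH_49824 the closest was MYCTH_112050 (0.83), followed by MYCTH_89603 (1.10), MYCTH_89872 (1.23), MYCTH_2066457 (1.41) and MYCTH_2308362 (1.45). Each of these 7 genes, the pair included, had its highest mean in X2 or XA. MYCTH_116553 averaged 509 CPM in G2X2, 2330 CPM in X2 and between 35.6 and 39.0 CPM in G2, GX and NoCarbon2. Log2 fold changes in G2X2 versus X2 were -2.19 for MYCTH_116553, -2.10 for MYCTH_2308362, -2.15 for MYCTH_89872 and -1.53 for MYCTH_2066457. For MYCTH_112050 it was -0.13, and for the pair -4.07 (MYCTH_89603) and -2.30 (MYCTH_49824). MYCTH_2308362 was, with MYCTH_89603, the other gene of the 7 whose mean was lower in XA (699 CPM) than in Xylan (1005 CPM), and its difference was not called (edgeR adjusted p = 0.179). With plate libraries alone, 4 of the 5 genes nearest to MYCTH_89603 were kept and 3 of the 5 nearest to MYCTH_49824.

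The neighbours of the pair on the chromosome were looked up in the RefSeq annotation of assembly ASM22609v1; none of the 8 nearest genes overlapped a xylanase gene. Beside MYCTH_49824 the adjacent gene MYCTH_49210, whose function the table does not give, also had its lowest means in the media without xylan or xylobiose. It averaged 48.9 ± 2.39 CPM in G2X2, 70.1 ± 37.3 CPM in X2, 4.61 ± 0.889 CPM in G2, 9.40 ± 2.78 CPM in GX and 17.3 ± 3.95 CPM in NoCarbon2. It averaged 73.5 ± 6.96 CPM in XA and 26.6 ± 5.68 CPM in Xylan (SD, n = 2 each). It was called higher in XA versus Xylan (1.47 ± 0.34, edgeR adjusted p = 0.00642) and lower in G2 versus NoCarbon2 (-1.91 ± 0.36, edgeR adjusted p = 0.00187). In G2X2 versus X2 it was not called (-0.52 ± 0.33, edgeR adjusted p = 0.249); this was -0.97 without X2 replicate 1 (0.0262) and 0.17 without X2 replicate 2 (0.724). Of the 8 neighbours, 3 were called higher in XA versus Xylan, all beside MYCTH_49824, and 1 lower, MYCTH_2299110 beside MYCTH_89603. Of all genes tested, 14.8% were called higher there and 17.1% lower. In G2 versus NoCarbon2 0 neighbours were called higher and 3 lower (12.3% and 14.2% of all genes). In GX versus NoCarbon2 1 was higher and 2 lower (10.9% and 13.1%). In G2 versus GX 1 was higher and 0 lower (4.62% and 5.87%). In G2X2 versus X2 0 were higher and 0 lower (14.6% and 15.4%).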

How the data were processed

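The authors deposited counts of reads per gene, whole numbers with no normalization. Per the submitters' processing notes the tools were HTSeq 0.13.5 and TopHat2 2.0.8b. Build, annotation and strandedness of counting are each not given in the sources used here. Reads of antisense transcripts could therefore have been counted together with those of a gene. How reads matching close paralogs were counted was not checked here. The XA samples were matched to count columns named AX, since both name Avicel with xylan. Of 9110 identifiers 9087 matched the RefSeq gene table, which gave gene spans (introns included) and neighbours; no sequences were used.

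edgeR 4.0.16 in R 4.3.3 was run on the 8567 genes passing filterByExpr (minimum count 10), with TMM scaling and 1 robust quasi-likelihood fit of 7 group means to 14 libraries (7 residual degrees of freedom), tested on simulated data. Genes were called at a Benjamini-Hochberg adjusted p under 0.05 over all genes, and tests are two-sided. The SE of a log2 fold change is its absolute value divided by the square root of the quasi-likelihood F. The 95% intervals were built from this SE and are not adjusted for the number of genes, so an interval can exclude 0 without a call. DESeq2 1.42.0, other scalings and filters, subsets of libraries, a replicate block and left-out libraries were alternatives. The genes and lists were chosen with earlier results of these data known. Named genes are the pair, 4 listed loci, the 5 most similar profiles of each, and 2 neighbours on either side.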

Additional observations from a re-analysis of the deposited data

How the results depend on the processing

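In tested comparisons 76 of 86 recomputed log2 fold changes of the pair kept direction and threshold side. The 100 described ones kept direction, which is no check as their levels chose the genes. Without single libraries, MYCTH_49824 lay at -2.88 to -1.25 in G2X2 versus X2. The rise of MYCTH_49824 in XA versus Xylan lay between 1.37 and 1.63 when single libraries were left out and was called in none of these 4 fits. The fall of MYCTH_89603 in G2 versus NoCarbon2 lay between -1.67 and -1.01 in such fits and was called only without NoCarbon2 replicate 2. MYCTH_89603 in GX versus NoCarbon2 (-1.21) was called by the DESeq2 Wald test. In G2 versus GX the left-out libraries gave -0.46 to 0.19 for MYCTH_89603 and -0.61 to 0.34 for MYCTH_49824, the signs turning without GX replicate 1. A group left with 1 library was assumed to vary like the other groups; the cause of these changes was not tested.

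Numbers of genes called fell, with single libraries left out, to between 1203 and 2193 in XA versus Xylan (2731 in all), 1150 and 2123 in G2 versus NoCarbon2 (2274), 995 and 1960 in GX versus NoCarbon2 (2060) and 219 and 504 in G2 versus GX (899). With only the contrasted groups fitted they were 1456 for G2 versus NoCarbon2, 1055 for GX versus NoCarbon2 and 2239 for G2 versus GX. The labels do not tie same-numbered replicates to each other, and their deviations correlated at over 0.1 in 2 of 21 pairs of groups (-0.16 to 0.21). With a replicate block, the log2 fold changes in XA versus Xylan were 1.53 for MYCTH_49824 (adjusted p = 0.0267) and -0.63 for MYCTH_89603, that of MYCTH_89603 in G2 versus NoCarbon2 was -1.41 (adjusted p = 0.0382), and no call of the pair changed. The same alternatives, applied to the other loci after the data had been seen, turned some signs among values that were not called and ended some calls, as given with those loci. In GX versus NoCarbon2 xyr-1 was called with plate libraries only (adjusted p = 0.0336) and without NoCarbon2 replicate 2 (0.0455). With single libraries left out, MYCTH_56237 lay between -0.19 and 0.29 in XA versus Xylan and between -0.15 and 0.065 in G2 versus NoCarbon2. In G2X2 versus X2 the ranges were -0.69 to 0.85 for MYCTH_112050, -0.67 to 0.42 for MYCTH_56237, -1.12 to 0.0063 for MYCTH_114107 and -0.97 to 0.17 for MYCTH_49210, the last called without X2 replicate 1. A list of sequence relatives and a search of promoter motifs were planned and not run, because no sequences were used here. With 2 libraries a group, the 95% intervals of the pair in the tested comparisons reached 0.91 to 1.08 to either side on the log2 scale.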
